A study of Mus musculus with 8 samples.

Results

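Of 47643 genes counted in mouse embryonic stem cells, 9 stood higher in all libraries of cells lacking either partner of the Microprocessor than in any library of Ago1_2 KO or WT cells, and were neither miRNA genes by symbol nor Dgcr8 or Kis2. They were chosen on their measured levels. The lowest CPM (a gene's count per 1000000 counts of its library) among the 4 Drosha KO and Dgcr8 KO libraries had to be at least 1.5 times the highest CPM among the 4 Ago1_2 KO and WT libraries, with a mean of at least 3 CPM over the first 4. Before names were left out, 28 genes met these limits, which is 0.236% of the 11869 genes with that mean. The 19 that were left out were 15 miRNA genes, the miRNA hosts Mir17hg and Mir22hg, Dgcr8, and Kis2, which overlaps Mir106a. The mirror of the rule, with all 4 libraries lower, found 17 genes. The 9 genes are Gm37296, A330023F24Rik, Nespas, 6720427I07Rik, E130102H24Rik, Dleu2, Gm43860, Tgfbr3 and 2010111I01Rik. They are not mainly mRNAs: 2 are annotated as protein-coding, Tgfbr3 and 2010111I01Rik, against 11009 of 11765 comparable genes (93.6%). Of the other 7, 5 are annotated as non-coding and 2, Gm37296 and Gm43860, are models of the biotype TEC, whose coding state is not settled.

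All cells were E14 embryonic stem cells of the 129/Ola background, taken from blastocysts and kept in 2i, a serum-free medium with LIF and inhibitors of the MEK and GSK3 kinases. The genotypes were Drosha KO, Dgcr8 KO, Ago1_2 KO (loss of Ago1 together with Ago2) and WT, with 2 polyadenylated RNA libraries each and 13229771 to 26333907 counts per library. Whether a genotype's libraries are separate cultures, or its cells 1 clone or several, is not stated, so p-values here measure only the spread between these samples. All 10 embryonic stem cell markers looked up reached 1 CPM in each of the 8 libraries, and their summed level lay between 6475 and 8890 CPM.

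The Microprocessor, made of the nuclease DROSHA and the RNA-binding protein DGCR8, cuts hairpins out of long primary miRNA transcripts in the nucleus. The freed hairpins are trimmed by DICER and loaded onto Argonaute proteins such as AGO1 and AGO2, which silence target mRNAs. A primary transcript may be a stand-alone non-coding RNA or share its exons or introns with a protein-coding host gene, and the Microprocessor also cuts hairpins in the Dgcr8 mRNA itself.

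The labels were read against the targeted genes. Drosha mRNA stood at 51.3 and 80.7 CPM in Drosha KO, 262 and 285 CPM in Dgcr8 KO, 352 and 365 CPM in Ago1_2 KO and 277 and 246 CPM in WT. Dgcr8 mRNA stood at 305 and 229 CPM in Drosha KO, 404 and 374 CPM in Dgcr8 KO, 94.8 and 83.8 CPM in Ago1_2 KO and 77.8 and 65.3 CPM in WT, so its level does not check the label Dgcr8 KO. Ago2 mRNA stood at 224 and 197 CPM in the libraries labelled Ago1_2 KO and at 462 and 210 CPM in WT, and Ago1 mRNA at 167 and 88.7 CPM in those labelled Ago1_2 KO against 105 and 58.7 CPM in WT. Drosha was the only one of these 4 genes whose mRNA lay lower in the libraries of its own KO than in both WT libraries, and Dgcr8 mRNA lay higher in Dgcr8 KO.

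Of the 9 genes, 7 lie at annotated miRNA genes on their own strand, although symbols starting with Mir had been left out. In GENCODE M21 (GRCm38), 5 hold at least 1 miRNA gene inside their bounds, 1 more overlaps a hairpin at its edge, and Nespas lies within 20 kb of 2 hairpins downstream. Among the 11765 comparable genes, those with a mean of at least 3 CPM in the 4 libraries and a match in the annotation, 468 (3.98%) hold a miRNA gene and 745 (6.33%) lie within 20 kb of one or hold it. In all, 15 miRNA genes lie in or near the 7, and 12 of them lie inside or overlap. Gm43860 and Tgfbr3 have no miRNA gene within 20 kb on their strand. Only miRNA genes with symbols starting with Mir were searched, and not those on the opposite strand.

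The hairpins of these loci are the substrates of the Microprocessor, so 1 is shown for each of 6 of these loci, with the annotated mature strands in capitals, as given by RefSeq for GRCm38.p6 (RNA letters, 5′ to 3′). In order they lie in E130102H24Rik at chr4:101346945-101347027 (minus strand), in 6720427I07Rik at chr13:48538179-48538272 (minus), in A330023F24Rik at chr1:195037547-195037634 (plus), in Dleu2 at chr14:61631880-61631972 (minus), in 2010111I01Rik at chr13:63301208-63301275 (plus) and downstream of Nespas at chr2:174267504-174267585 (minus).
Mir101a: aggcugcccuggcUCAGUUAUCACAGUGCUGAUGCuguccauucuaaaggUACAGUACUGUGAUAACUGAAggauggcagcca
Mirlet7a-1: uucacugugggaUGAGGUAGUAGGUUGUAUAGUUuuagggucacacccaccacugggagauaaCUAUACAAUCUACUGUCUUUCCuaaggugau
Mir29c: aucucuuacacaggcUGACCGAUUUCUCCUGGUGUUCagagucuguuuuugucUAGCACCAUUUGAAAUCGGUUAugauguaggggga
Mir16-1: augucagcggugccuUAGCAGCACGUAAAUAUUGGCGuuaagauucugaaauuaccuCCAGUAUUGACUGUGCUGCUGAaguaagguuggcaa
Mir24-1: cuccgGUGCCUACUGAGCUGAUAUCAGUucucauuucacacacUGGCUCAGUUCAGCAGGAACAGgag
Mir298: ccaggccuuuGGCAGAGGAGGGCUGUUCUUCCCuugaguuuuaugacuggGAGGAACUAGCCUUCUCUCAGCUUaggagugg

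Mature miRNAs pair with targets through the seed, bases 2 to 8, which is in capitals in the next set (RefSeq, GRCm38.p6). They are shown to compare seeds within and between these loci. RefSeq sequences were matched for 13 of the 15 miRNA genes, and Mir30b and Mir30d are named only. The matches held no miR-23b-3p and no hairpin of Mir15a, so the seed of miR-23b-3p was not compared.
let-7a-5p (6720427I07Rik): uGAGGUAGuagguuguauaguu
let-7d-5p (6720427I07Rik): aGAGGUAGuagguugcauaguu
let-7f-5p (6720427I07Rik): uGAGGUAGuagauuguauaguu
miR-29b-3p (A330023F24Rik): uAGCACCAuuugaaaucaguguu
miR-29c-3p (A330023F24Rik): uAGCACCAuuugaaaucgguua
miR-15a-5p (Dleu2): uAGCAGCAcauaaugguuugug
miR-16-5p (Dleu2): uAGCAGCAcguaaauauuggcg
miR-101a-3p (E130102H24Rik): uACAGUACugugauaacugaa
miR-27b-3p (2010111I01Rik): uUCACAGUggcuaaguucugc
miR-24-3p (2010111I01Rik): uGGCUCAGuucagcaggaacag
miR-296-5p (downstream of Nespas): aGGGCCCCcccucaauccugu
miR-298-5p (downstream of Nespas): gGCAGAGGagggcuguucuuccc

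Within 3 of the loci the listed strands share a seed. The seed GAGGUAG is common to the 3 let-7 strands of 6720427I07Rik, AGCACCA to both miR-29 strands of A330023F24Rik, and AGCAGCA to miR-15a-5p and miR-16-5p of Dleu2. The first and last of these are the let-7 and miR-15/16 families, whose known targets include cell-cycle genes. No seed among the strands found was shared between 2 of the loci.

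**Figure D1:**
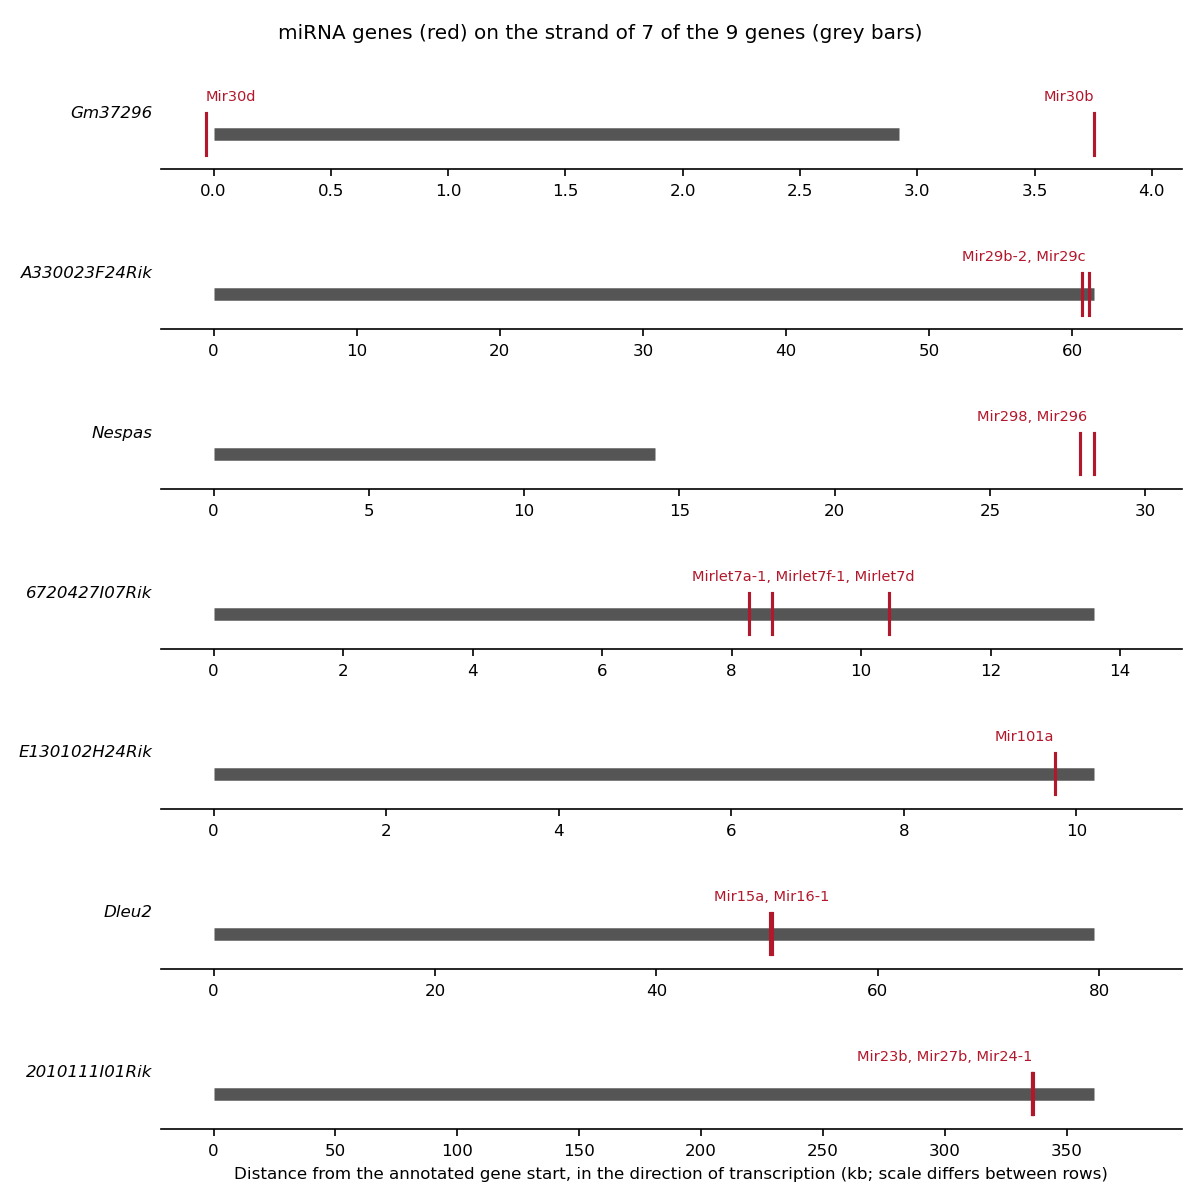
Position of the 15 miRNA genes (red lines) along 7 of the 9 genes (grey bars), in kb from the annotated start in the direction of transcription, with 1 row per gene and its own scale. The hairpins of A330023F24Rik, E130102H24Rik and 2010111I01Rik lie near the far end of the gene, and those beside Nespas lie 13.652 kb or more beyond its end.

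The transcripts at miRNA genes that are not annotated as protein-coding are described first. Gm37296 (ENSMUSG00000104116.1) is a single-exon transcript whose biotype, TEC, marks models that await experimental proof, at chr15:68338295-68341216 on the minus strand. Its first 9 bases overlap Mir30d, and Mir30b begins 0.785 kb beyond its end. It thus lies between the hairpins of the Mir30d and Mir30b cluster without reaching Mir30b. It had 14.0 and 13.6 CPM in Drosha KO, 6.05 and 5.07 CPM in Dgcr8 KO, 0.58 and 0.15 CPM in Ago1_2 KO and 0.28 and 0.27 CPM in WT. All 4 Microprocessor KO libraries lie far above the rest, with a smallest ratio of 8.76 between the sides, which is the widest gap of the 9 genes. In edgeR the log2 fold change against WT was 5.57 ± 0.51 in Drosha KO and 4.22 ± 0.50 in Dgcr8 KO (SE). As all such values against WT of the 9 genes, these come from the contrast that chose the genes and are given as descriptions.

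Other annotated transcripts lie around Gm37296. Gm26621, a processed transcript on the same strand, had 9.27 and 3.95 CPM in Drosha KO, 4.19 and 3.21 CPM in Dgcr8 KO, 2.61 and 2.42 CPM in Ago1_2 KO and 1.29 and 1.39 CPM in WT, and its Drosha KO and Dgcr8 KO libraries overlap. All 4 of those libraries lie above the Ago1_2 KO and WT libraries, with 3.21 CPM at the lowest against 2.61 CPM at the highest. The lincRNA Gm20732, which holds Mir30d and shares 234 exonic bases with Gm37296, had 25 and 44 counts in Drosha KO, 12 and 8 counts in Dgcr8 KO, 0 and 0 in Ago1_2 KO and 0 and 0 in WT. Mir30d itself had 18 and 19 counts in Drosha KO, 1 and 2 in Dgcr8 KO, and 0 in the other 4 libraries. The sources used here do not say how reads were divided between overlapping genes, so levels of Gm37296 and Gm20732 are uncertain as separate values.

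A330023F24Rik (ENSMUSG00000096929.7, chr1:194976375-195037904, plus strand) is a processed transcript whose end holds Mir29b-2 and Mir29c, in an exon of the 1 transcript model that spans them. It had 6.54 and 2.24 CPM in Drosha KO, 5.17 and 3.27 CPM in Dgcr8 KO, 0.58 and 0.00 CPM in Ago1_2 KO and 0.28 and 0.04 CPM in WT. Counts were the lowest of the 9 genes, with 14 and 0 counts in Ago1_2 KO and 5 and 1 counts in WT, and the Drosha KO libraries lie on either side of both Dgcr8 KO libraries. The log2 fold change against WT was 4.73 ± 1.02 in Drosha KO and 4.65 ± 1.02 in Dgcr8 KO, the widest errors of the 9 genes.

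6720427I07Rik (ENSMUSG00000097375.2, chr13:48532905-48546500, minus strand) is a lincRNA with a single annotated transcript that carries Mirlet7a-1, Mirlet7f-1 and Mirlet7d in an exon. It had 20.8 and 12.4 CPM in Drosha KO, 10.7 and 11.4 CPM in Dgcr8 KO, 3.68 and 3.02 CPM in Ago1_2 KO and 3.04 and 3.86 CPM in WT. The Ago1_2 KO and WT libraries intermingle, and all 4 Microprocessor KO libraries lie at least 2.77-fold above the highest of them. Against WT the log2 fold change was 2.20 ± 0.34 in Drosha KO and 1.58 ± 0.34 in Dgcr8 KO. Gm37238, a TEC model inside the same gene with which it shares no exonic bases, had 30 and 32 counts in Drosha KO, 6 and 6 in Dgcr8 KO, 2 and 1 in Ago1_2 KO and 2 and 1 in WT.

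E130102H24Rik (ENSMUSG00000086782.2, chr4:101346531-101356735, minus strand) is a lincRNA with Mir101a in an exon of 1 of its 2 transcript models. It had 14.4 and 19.8 CPM in Drosha KO, 7.13 and 7.32 CPM in Dgcr8 KO, 2.98 and 3.25 CPM in Ago1_2 KO and 2.81 and 2.15 CPM in WT. The levels fall into 3 steps, with Drosha KO above Dgcr8 KO and both above the rest. Its log2 fold change against WT was 2.75 ± 0.32 in Drosha KO and 1.46 ± 0.31 in Dgcr8 KO.

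Dleu2 (ENSMUSG00000097589.9, chr14:61602839-61682373, minus strand) is the long non-coding host of the tumour-suppressive miR-15a and miR-16-1, first named for a deletion in human leukaemia. Both hairpins are intronic in 8 of its 15 transcript models. Dleu2 had 82.2 and 60.4 CPM in Drosha KO, 64.6 and 63.8 CPM in Dgcr8 KO, 33.2 and 25.5 CPM in Ago1_2 KO and 31.7 and 26.6 CPM in WT. Its levels in Drosha KO and Dgcr8 KO overlap. The log2 fold change against WT was 1.25 ± 0.22 in Drosha KO and 1.06 ± 0.22 in Dgcr8 KO. Trim13, a ubiquitin ligase gene on the opposite strand, had 48.0 and 37.3 CPM in Drosha KO, 60.3 and 60.2 CPM in Dgcr8 KO, 51.9 and 49.7 CPM in Ago1_2 KO and 41.1 and 50.7 CPM in WT, with no such split between the 4 libraries and the other 4.

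Nespas (ENSMUSG00000086537.7, chr2:174281237-174295436, minus strand) is the imprinted antisense transcript of the Gnas cluster, made from the paternal allele. Mir298 and Mir296 lie 13.652 and 14.112 kb beyond its annotated end on the same strand. It had 22.6 and 11.5 CPM in Drosha KO, 14.4 and 10.5 CPM in Dgcr8 KO, 2.94 and 2.87 CPM in Ago1_2 KO and 0.96 and 0.67 CPM in WT. Its log2 fold change against WT was 4.34 ± 0.43 in Drosha KO and 3.85 ± 0.43 in Dgcr8 KO. Nespas shares 988 exonic bases with Gnas, which encodes a G-protein alpha subunit on the opposite strand. The libraries are reverse-stranded per the labels, but no source used here says whether counting used strand, so reads of the pair cannot be told apart with certainty. Gnas did not follow Nespas: it had 149 and 192 CPM in Drosha KO, 59.0 and 74.6 CPM in Dgcr8 KO, 167 and 176 CPM in Ago1_2 KO and 208 and 191 CPM in WT. Gnas in Drosha KO against Dgcr8 KO differed by a log2 fold change of 1.39 ± 0.21 (adjusted p 0.00382, edgeR's quasi-likelihood test with Benjamini-Hochberg adjustment), and was low in Dgcr8 KO. Of 43 imprinted genes looked up, 33 were tested, and Nespas is the 1 among the 9 genes. Nespas included, 4 of the 33 were called higher and 2 lower in Drosha KO, 9 higher and 4 lower in Dgcr8 KO, and 4 higher and 3 lower in Ago1_2 KO, each against WT. Over all 16388 genes tested, the share called was 6.54% higher and 4.83% lower in Drosha KO, 2.45% higher and 4.48% lower in Dgcr8 KO, and 10.2% higher and 7.38% lower in Ago1_2 KO.

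2010111I01Rik (ENSMUSG00000021458.16, chr13:62964893-63326096, plus strand; Aopep in RefSeq) encodes aminopeptidase O and is the 1 protein-coding host among the 9 genes. Mir23b is intronic in 9 of its 28 transcript models, while Mir27b and Mir24-1 are each exonic in 1 and intronic in 8 and 7. It had 107 and 86.3 CPM in Drosha KO, 71.6 and 55.8 CPM in Dgcr8 KO, 25.8 and 20.8 CPM in Ago1_2 KO and 29.6 and 36.0 CPM in WT. Every Drosha KO library lies above both Dgcr8 KO libraries, and both Ago1_2 KO libraries lie below both WT libraries. Against WT the log2 fold change was 1.51 ± 0.23 in Drosha KO and 0.86 ± 0.23 in Dgcr8 KO. Fancc, a Fanconi anaemia gene on the opposite strand that shares 185 exonic bases, lay between 19.8 and 26.2 CPM over all 8 libraries.

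The remaining 2 genes have no such miRNA gene within 20 kb on their strand, and the opposite strand was not searched. Tgfbr3 (ENSMUSG00000029287.14, chr5:107106570-107289629, minus strand) encodes betaglycan, a co-receptor that presents TGF-beta ligands and binds inhibin. It had 18.4 and 19.4 CPM in Drosha KO, 61.7 and 47.5 CPM in Dgcr8 KO, 8.65 and 8.09 CPM in Ago1_2 KO and 9.56 and 11.7 CPM in WT. It is the only one of the 9 genes whose Dgcr8 KO libraries both lie above both Drosha KO libraries. The log2 fold change against WT was 0.78 ± 0.23 in Drosha KO and 2.27 ± 0.24 in Dgcr8 KO, and the nearest miRNA gene on its strand is 3376.446 kb away. Gm43422, a TEC model that shares 297 exonic bases with Tgfbr3, had 11 and 29 counts in Drosha KO, 52 and 25 in Dgcr8 KO, 7 and 6 in Ago1_2 KO and 7 and 4 in WT.

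Gm43860 (ENSMUSG00000106928.1, chr5:35551260-35553964, minus strand) is a single-exon TEC model 818.288 kb from the nearest miRNA gene of its strand. It had 12.2 and 5.54 CPM in Drosha KO, 5.77 and 5.39 CPM in Dgcr8 KO, 1.90 and 1.81 CPM in Ago1_2 KO and 1.35 and 3.23 CPM in WT. One Drosha KO library stands above the other 3 Microprocessor KO libraries, which lie close together. Against WT the log2 fold change was 1.87 ± 0.51 in Drosha KO and 1.17 ± 0.50 in Dgcr8 KO. The nearby Trmt44, a tRNA methyltransferase gene on the same strand, had 46.6 and 34.7 CPM in Drosha KO, 31.5 and 32.5 CPM in Dgcr8 KO, 22.4 and 23.4 CPM in Ago1_2 KO and 17.0 and 30.4 CPM in WT. All 4 Microprocessor KO libraries of Trmt44 lie above the rest too, though narrowly, with 31.5 CPM at the lowest against 30.4 CPM.

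**Figure D2:**
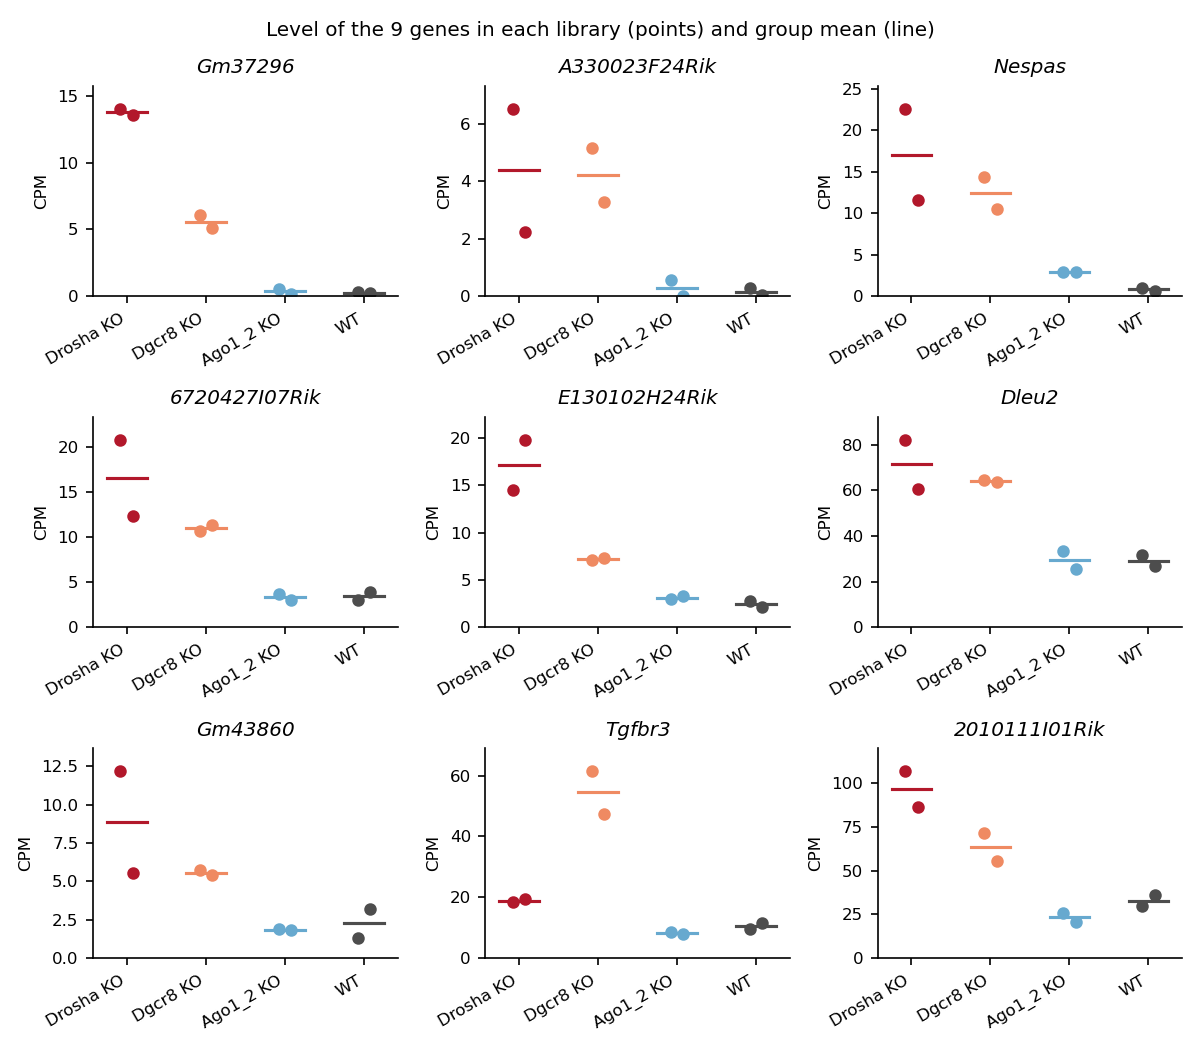
CPM of each of the 9 genes (1 panel each, linear axis from 0) in every library (points) with the mean of the 2 libraries (line), for Drosha KO, Dgcr8 KO, Ago1_2 KO and WT. Each panel shows the gap that chose the gene; Tgfbr3 peaks in Dgcr8 KO at 61.7 and 47.5 CPM, and E130102H24Rik in Drosha KO at 14.4 and 19.8 CPM.

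Against WT, 8 of the 9 genes were among those called higher in Drosha KO at an adjusted p under 0.05, beside 6.54% of the 16388 genes tested, and 7 of 9 were among those called higher in Dgcr8 KO, beside 2.45%. The choice of the genes sets these counts, and nothing is read from them. The median log2 fold change of the 9 genes was 2.20 in Drosha KO and 1.58 in Dgcr8 KO against WT, with medians of -0.02 and -0.03 over all genes tested. Both comparisons share the WT libraries.

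Just inside the fold limit lay 2010111I01Rik at a ratio of 1.55, Tgfbr3 at 1.58 and Gm43860 at 1.67. Just outside it lay 2610318N02Rik at 1.40, which holds Mir130b and Mir301b, Nanos3 at 1.39, which holds Mir181c and Mir181d, and Zfp629 at 1.32, which holds none. At the limit on the mean, A330023F24Rik (4.31 CPM), Gm43860 (7.23 CPM) and Gm37296 (9.69 CPM) were inside. Gm27019 (2.80 CPM), P2ry1 (2.52 CPM) and 4631405K08Rik (2.44 CPM) were outside, of which Gm27019 overlaps Mir29b-1 and 4631405K08Rik holds Mir205. The mean of Gm27019 came from Drosha KO, with 7.33 and 3.57 CPM there against 0.16 and 0.13 CPM in Dgcr8 KO. It met the fold limit only because it had 0 CPM in Ago1_2 KO and WT. With CPM taken from TMM-scaled library sizes, 2010111I01Rik, Tgfbr3 and Gm43860 fell outside the rule and the other 6 genes stayed.

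Counts assigned to the hairpin genes themselves were read beside their hosts. Summed over the 15 miRNA genes, they lay between 241 and 1009 in the Drosha KO and Dgcr8 KO libraries and between 13 and 47 in the Ago1_2 KO and WT libraries. These sums are not scaled for library size. They include Mir24-1, Mir27b and Mir23b, which met the rule themselves, so the choice partly sets the gap and nothing is read from it. For Mir30b, Mir29b-2, Mirlet7d and Mir16-1 the CPM of the 4 Microprocessor KO libraries overlapped that of the other 4. Mature miRNAs are too short and lack the poly(A) tail that these libraries select, so the counts are read here as longer RNA over the hairpin.

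The miRNA genes in 2010111I01Rik had the highest counts. Mir24-1 had 243 and 258 counts in Drosha KO, 97 and 73 in Dgcr8 KO, 6 and 3 in Ago1_2 KO and 1 and 3 in WT. Mir27b had 153 and 224 counts in Drosha KO, 63 and 66 in Dgcr8 KO, 5 and 1 in Ago1_2 KO and 2 and 1 in WT. Mir23b, from the same cluster, had 120 and 117 counts in Drosha KO, 37 and 19 in Dgcr8 KO, 7 and 0 in Ago1_2 KO and 0 and 0 in WT. These 3 were among the 15 miRNA genes that met the rule and were left out by name.

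Downstream of Nespas, Mir298 had 74 and 60 counts in Drosha KO, 30 and 30 in Dgcr8 KO, 3 and 2 in Ago1_2 KO and 0 and 1 in WT. Mir296 had 44 and 55 counts in Drosha KO, 35 and 11 in Dgcr8 KO, 9 and 3 in Ago1_2 KO and 3 and 4 in WT. Both hairpins lie beyond the annotated end of Nespas, and whether 1 transcript covers them and Nespas was not tested.

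Mir101a, in E130102H24Rik, had 54 and 130 counts in Drosha KO, 6 and 10 in Dgcr8 KO, 3 and 1 in Ago1_2 KO and 5 and 1 in WT. Mirlet7a-1, in 6720427I07Rik, had 42 and 58 counts in Drosha KO, 7 and 2 in Dgcr8 KO, and 0 in the other 4 libraries. Mir15a, in Dleu2, had 55 and 24 counts in Drosha KO, 8 and 4 in Dgcr8 KO, and 0 in the other 4. In each of these 3 the Drosha KO libraries lie above the Dgcr8 KO libraries, in counts and in CPM. Other hairpins of the same loci showed less of a gap. Mirlet7f-1 had 30 and 25 counts in Drosha KO and 18 and 9 in Dgcr8 KO, and Mirlet7d had 23 and 22 against 19 and 4. For Mirlet7f-1, Mirlet7d and Mir16-1 the CPM of the Drosha KO and Dgcr8 KO libraries overlapped. Both hairpins of A330023F24Rik were near the limit of counting, with 4 counts or fewer in any library.

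**Figure D3:**
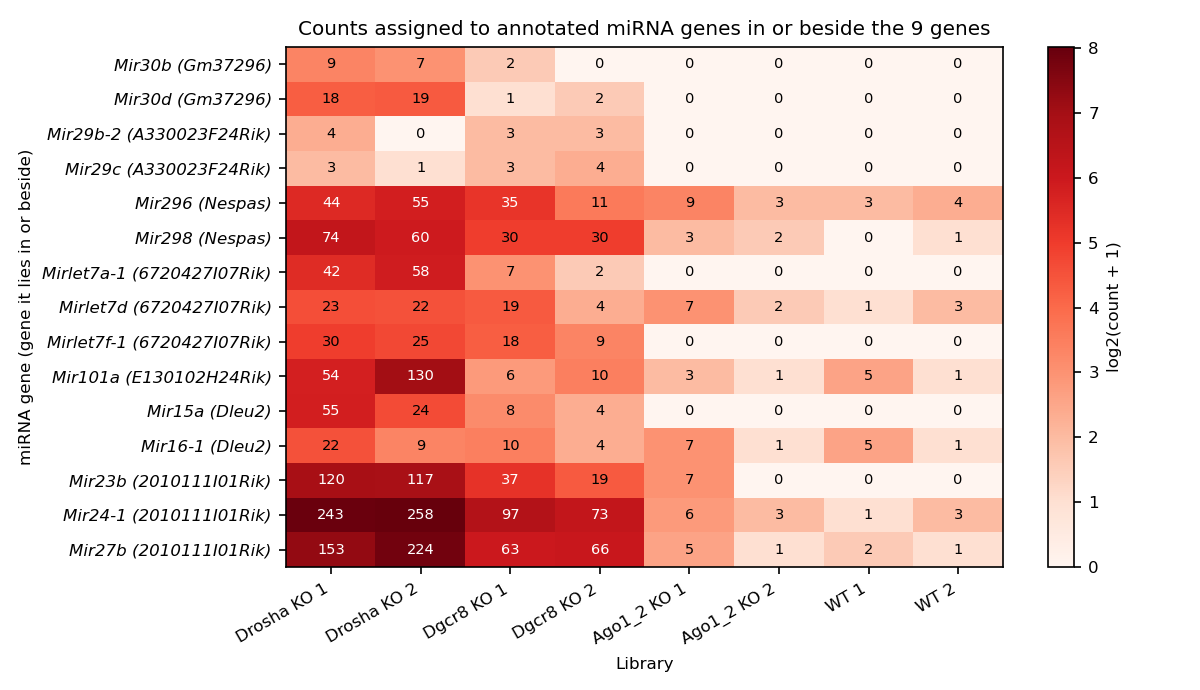
Counts assigned to the 15 annotated miRNA genes in or beside 7 of the 9 genes, 1 row per miRNA gene and 1 column per library, coloured by log2(count + 1) with the count printed in each cell. Summed counts per library are 241 to 1009 in the Drosha KO and Dgcr8 KO columns and 13 to 47 in the Ago1_2 KO and WT columns. The sums are not scaled for library size and include Mir24-1, Mir27b and Mir23b, which met the rule themselves.

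Other miRNA hosts were set beside the 9 genes, to see how far holding a hairpin goes with the same levels. Leaving out the 9 genes, 547 tested genes hold a miRNA gene on their strand. A host was classed as exonic if any of its hairpins lay at least partly in an exon of at least 1 transcript model, even if intronic in others. Every biotype other than protein-coding was classed as non-coding. Of the 16 non-coding ones with an exonic hairpin, 6 were called higher and 0 lower in Drosha KO against WT (median log2 fold change 0.97), 6 higher and 0 lower in Dgcr8 KO (1.73), and 0 higher and 1 lower in Ago1_2 KO (0.04). These 16 include Mir17hg and Mir22hg, which met the rule and were left out by name, Mir124a-1hg and Mirg, which the names also leave out, and Gm20732, which shares exons with Gm37296. Without these 5, 3 of 11 were called higher in Drosha KO (median 0.63), 2 in Dgcr8 KO (1.02) and 0 in Ago1_2 KO, and 0, 0 and 1 lower. Of the 375 protein-coding hosts with an intronic hairpin, 35 were called higher and 11 lower in Drosha KO (median 0.13), 10 higher and 25 lower in Dgcr8 KO (-0.03), and 46 higher and 18 lower in Ago1_2 KO (0.18). Of the 10 non-coding hosts with an intronic hairpin, 1 was called higher and 1 lower in Drosha KO (median 0.40), 1 higher and 0 lower in Dgcr8 KO (0.51), and 1 higher and 1 lower in Ago1_2 KO (0.49). Of the 146 protein-coding hosts with an exonic hairpin, 14 were called higher and 1 lower in Drosha KO (median 0.09), 2 higher and 9 lower in Dgcr8 KO, and 18 higher and 6 lower in Ago1_2 KO (0.05). These 146 include Dgcr8, which met the rule and was left out by name. Over all 16388 genes tested, 1071 were called higher and 791 lower in Drosha KO, 401 higher and 735 lower in Dgcr8 KO, and 1677 higher and 1210 lower in Ago1_2 KO. Leaving the 9 genes out lowers the counts of hosts, and a difference between the classes was not tested. Of the 7 miRNA loci among the 9 genes, A330023F24Rik, 6720427I07Rik and E130102H24Rik are of the non-coding exonic kind and 2010111I01Rik is protein-coding.

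**Figure D4:**
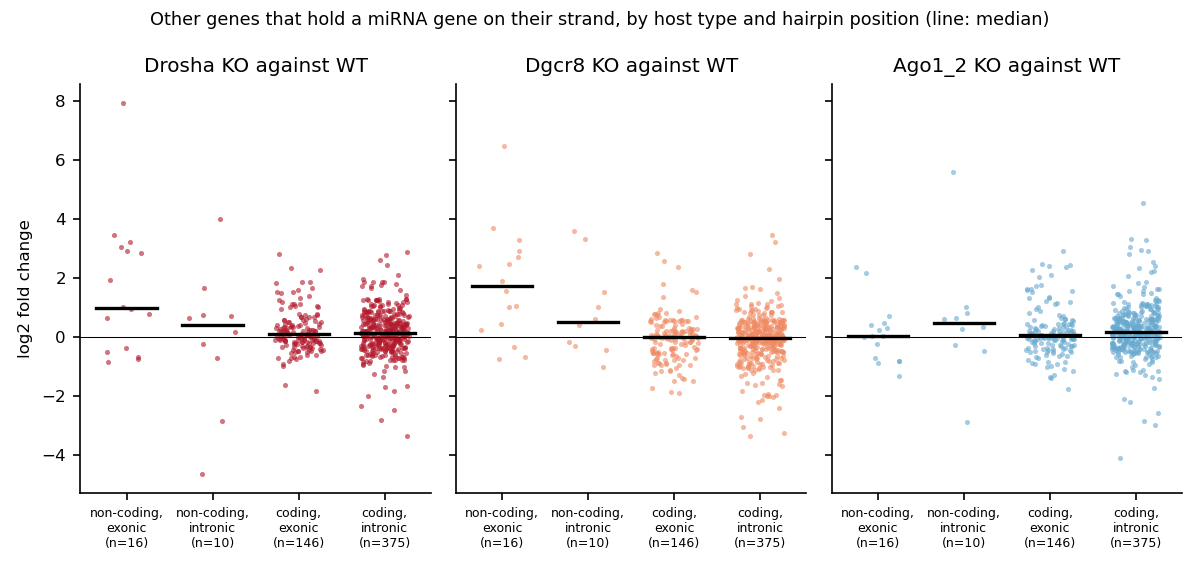
Log2 fold change against WT (edgeR, vertical axis) of tested genes other than the 9 that hold a miRNA gene on their strand, by host type and hairpin position, for Drosha KO, Dgcr8 KO and Ago1_2 KO. Points are genes and lines are medians. In non-coding hosts with an exonic hairpin the medians are 0.97, 1.73 and 0.04. These hosts include Mir17hg and Mir22hg, which met the rule and were left out by name, and Gm20732, which shares exons with Gm37296. Without them and without Mir124a-1hg and Mirg, the medians are 0.63, 1.02 and 0.04.

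The share at miRNA genes also varied with the selection. When the Ago1_2 KO libraries were left out of the rule, 204 genes were added, of which 188 are protein-coding and 8 overlap a miRNA gene on their strand (3.92%), against 6 of the 9 genes. Of the 11815 genes that had the minimum mean after names were left out, 475 overlap one (4.02%) and 93.2% are protein-coding. The added genes lie near that background. With no minimum on the mean CPM, 38 genes were added, of which 5 overlap a miRNA gene. Among the 17 genes of the mirror rule, 1 did.

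Drosha KO and Dgcr8 KO both belong to the high side, so the direction between them was not used in choosing the genes, and their difference was tested. The rule does leave out genes that are high in only 1 of these genotypes, so the number called is not free of the choice. Of the 9 genes, all of which passed the filter on low counts, Tgfbr3 was lower and E130102H24Rik and Gm37296 were higher in Drosha KO than in Dgcr8 KO, beside 15.4% of the 16388 genes called in either direction. Tgfbr3 averaged 18.9 ± 0.70 CPM in Drosha KO and 54.6 ± 10 CPM in Dgcr8 KO (SD, n = 2), a log2 fold change of -1.48 ± 0.23 (SE, adjusted p 0.00437, edgeR's quasi-likelihood test with Benjamini-Hochberg adjustment). E130102H24Rik averaged 17.1 ± 3.81 CPM in Drosha KO and 7.23 ± 0.13 CPM in Dgcr8 KO, a log2 fold change of 1.29 ± 0.30 (adjusted p 0.0208, same edgeR test). Gm37296 averaged 13.8 ± 0.32 CPM in Drosha KO and 5.56 ± 0.69 CPM in Dgcr8 KO, a log2 fold change of 1.36 ± 0.39 (adjusted p 0.0423, same edgeR test).

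These calls rest on few libraries. The call of Tgfbr3 was lost without the first Dgcr8 KO library (-1.30, edgeR adjusted p 0.0767). That of E130102H24Rik was lost without either Dgcr8 KO library (1.26 and 1.33, edgeR adjusted p 0.191 and 0.160) or the second Drosha KO library (1.03, 0.0715), and that of Gm37296 without any 1 of the 4 (1.26 to 1.47). Over the 9 genes, 8 log2 fold changes were positive, with a median of 0.63 against 0.01 over all genes tested, and 4 had an unadjusted p under 0.05. Without the first Drosha KO library 5 were positive, with a median of 0.06, and Nespas, A330023F24Rik and Dleu2 turned negative (-0.04, -0.85 and -0.02). With all libraries, 2010111I01Rik was the fourth (0.65 ± 0.22, edgeR adjusted p 0.0802), and the other 5 lay between 0.08 and 0.70.

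Summed levels of markers of other cell types also differed between Drosha KO and Dgcr8 KO. The 8 mesoderm markers summed to 11.2 to 11.9 CPM in Drosha KO, 66.5 to 81.1 CPM in Dgcr8 KO, 26.8 to 28.9 CPM in Ago1_2 KO and 32.4 to 44.0 CPM in WT, with 1 of the 8 at 1 CPM or more in each library. The 8 neural markers summed to 41.4 to 62.5 CPM in Drosha KO, 20.8 to 22.0 CPM in Dgcr8 KO, 91.3 to 95.6 CPM in Ago1_2 KO and 37.7 to 37.8 CPM in WT, with 4 of the 8 at that level. The 9 trophectoderm markers summed to 175 to 208 CPM in Drosha KO, 83.5 to 87.4 CPM in Dgcr8 KO, 179 to 198 CPM in Ago1_2 KO and 118 to 161 CPM in WT. The 10 fibroblast markers summed to 2652 to 3304 CPM in Drosha KO, 1471 to 1881 CPM in Dgcr8 KO, 2653 to 2759 CPM in Ago1_2 KO and 1310 to 3097 CPM in WT, with 2 of the 10 at 1 CPM or more in each library. Fn1, which encodes fibronectin and is made by other cells too, gave nearly all of that sum, with 2642 and 3290 CPM in Drosha KO and 1873 and 1464 CPM in Dgcr8 KO. The fibroblast markers Col1a1, Col1a2, Col3a1, Dcn, Lum, Postn and Acta2 reached at most 1.59 CPM in any library. Pdgfrb, of the same list, lay between 4.55 and 11.8 CPM in every library. Thy1, also of that list, had 4.43 and 3.38 CPM in Drosha KO and 0.38 and 0.58 CPM in Dgcr8 KO. It had 3.93 and 7.03 CPM in Ago1_2 KO, and its WT libraries lay between those of Drosha KO and Dgcr8 KO. The part of these markers in the results was not tested, and in bulk RNA fewer cells of a type and less RNA per cell cannot be told apart. Endoderm markers summed to at most 10.6 CPM in any library.

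Ago1_2 KO and WT both belong to the low side, so the rule sets no direction between them, and their difference was tested likewise. The rule does cap the level in both, which limits how far a gene can rise in Ago1_2 KO. Without the Ago1_2 KO libraries, 213 genes met it. The number called among the 9 genes and their median are therefore partly set by the choice, and nothing is read from them. Nespas was higher in Ago1_2 KO and was the 1 called among the 9 genes, beside 17.6% of the 16388 genes tested. It averaged 2.90 ± 0.05 CPM in Ago1_2 KO and 0.81 ± 0.20 CPM in WT (SD, n = 2), a log2 fold change of 1.75 ± 0.43 (SE, adjusted p 0.0237, edgeR's quasi-likelihood test with Benjamini-Hochberg adjustment). The call was lost without either Ago1_2 KO library (edgeR adjusted p 0.111 and 0.106), without the second WT library (1.58, 0.103) and with limma-voom (1.74, 0.0703). Nespas thus stood above WT in all 3 KO genotypes, by less in Ago1_2 KO than in the Microprocessor KO libraries, whose lowest was 10.5 CPM.

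Of the other 8 genes, 2010111I01Rik had a log2 fold change of -0.59 ± 0.23 in Ago1_2 KO against WT (edgeR adjusted p 0.0977) and Tgfbr3 one of -0.44 ± 0.24 (0.213). The rest had edgeR adjusted p-values between 0.572 and 0.825, with log2 fold changes from -0.42 for Gm43860 to 1.03 for A330023F24Rik, whose SE was 1.20. A p above the threshold does not show that the levels were alike. Of the 9, 2 had an unadjusted p under 0.05, and the median log2 fold change was -0.08 against -0.02 over all genes tested. With 1 library left out that median lay between -0.44 and 0.13. A330023F24Rik and Gm37296 passed the filter on low counts only through the Microprocessor KO libraries, and with only Ago1_2 KO and WT in the fit, 7 of the 9 were tested, with a median of -0.10.

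**Figure D5:**
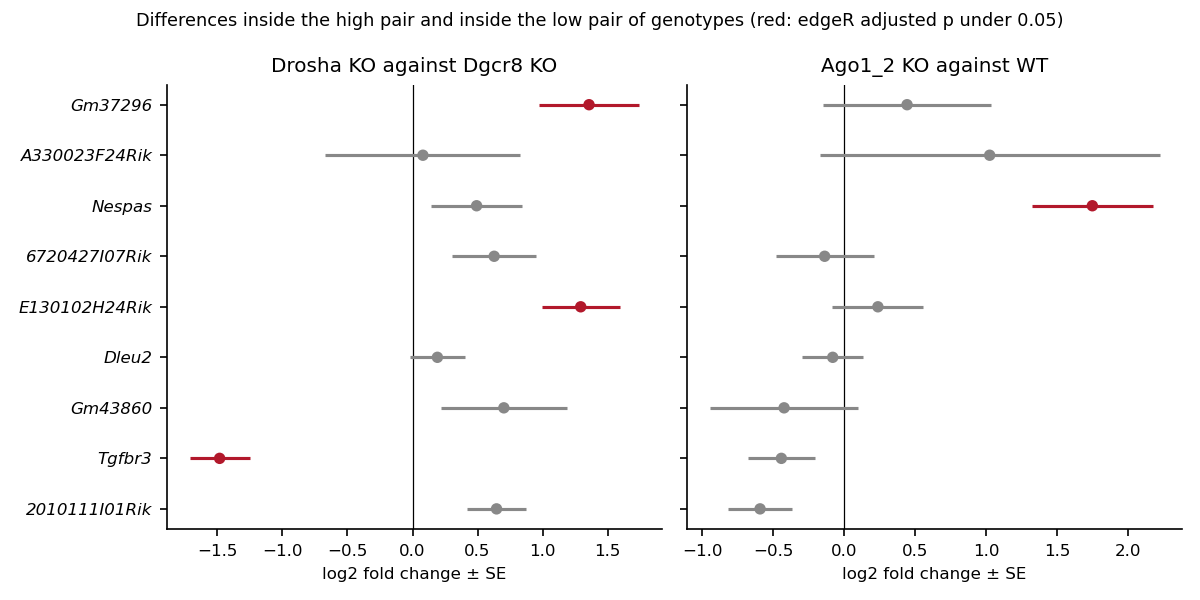
Log2 fold change ± SE (edgeR, horizontal axis) of the 9 genes in Drosha KO against Dgcr8 KO (left) and Ago1_2 KO against WT (right); red marks an adjusted p under 0.05. On the left Tgfbr3 lies at -1.48 and the other 8 genes to the right of 0; on the right Nespas lies at 1.75.

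The 27 genes of the miRNA pathway looked up, from Drosha to Argonautes and their TNRC6 partners, hold none of the 9 genes. In Drosha KO against WT, 5 of the 27 were called higher, Dgcr8, Ago1, Ago2, Tnrc6a and Tnrc6b, and 1 lower, Drosha. In Dgcr8 KO against WT 1 was higher, Dgcr8, and 0 were lower, and in Ago1_2 KO against WT Tnrc6a and Tnrc6b were higher and 0 lower. Beside them, 6.54%, 2.45% and 10.2% of all genes tested were called higher in the 3 genotypes in that order. Of 8 mRNAs reported elsewhere as direct Microprocessor targets, 5 were tested and 1, Dgcr8, was called higher in Drosha KO (log2 fold change 1.86 ± 0.20, edgeR adjusted p 0.00132) and in Dgcr8 KO (2.36 ± 0.20, 0.00101) against WT, and 0 were called lower. Dgcr8 itself met the rule and was left out by name. In Ago1_2 KO against WT 0 were called higher and 1 lower, Aurkaip1 (-1.01 ± 0.27, edgeR adjusted p 0.0318), which stood at -0.84 in Drosha KO and -0.76 in Dgcr8 KO without a call. Nfib, a transcription factor gene of that list, had log2 fold changes of 0.62 ± 0.28 in Drosha KO, 0.91 ± 0.28 in Dgcr8 KO and 0.65 ± 0.28 in Ago1_2 KO (edgeR adjusted p 0.167, 0.0729 and 0.129).

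Features other than miRNA genes were also read. The 9 genes lie on 7 chromosomes, with 2 on chromosome 13 and 2 on chromosome 5. Their median transcript GC content was 48.6% against 49.5% over the comparable genes, and their median gene length 14.2 kb against 23.1 kb. Promoters of 4 of the 9 genes, from 250 bases before to 50 after the start, were found in RefSeq and searched on both strands. GGGCGG was found in 2, Dleu2 and E130102H24Rik (35.7% of 32851 promoters), TATAAA in Dleu2 (13.6%) and CACGTG in Dleu2 (7.15%), while CCAAT (37.4%) and TGACGTCA (1.79%) were found in none. The seed match GCACTT of the miR-290 family, the main miRNA cluster of these cells, was absent from the annotated 3′ UTRs of Tgfbr3 (3069 bases) and 2010111I01Rik (2322 bases), and was present in 3916 of 10880 comparable genes (36.0%).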

How the data were processed

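The authors deposited counts per gene for 8 polyadenylated RNA libraries, reverse-stranded TruSeq per the labels. Per the submitters' processing notes, reads were aligned with STAR 2.4.2a to mm10 (GRCm38). No source used here gives the counter, its strand setting or the annotation release. Identifiers were matched without version to GENCODE M21, and 0 count columns went unused. CPM for the choice of genes used column totals. In edgeR 4.0.16 (R 4.3.3, limma 3.58.1), filterByExpr left 16388 genes, TMM factors scaled them, and robust quasi-likelihood F tests compared genotype means in a single model of all 8 libraries. Benjamini-Hochberg adjustment ran over the whole table, with calls at an adjusted p under 0.05, and SE come from the same test. Steps were tested on simulated data. The genes and lists were chosen with earlier results of these data known. All 9 genes are named; other genes are named from the lists, the thresholds, the overlaps and the hosts. Alternatives were DESeq2 1.42.0, limma-voom, other scalings and filters, only the groups compared, a replicate block, and each library left out. A GC offset was added after the data were seen. Python 3.11.15 (numpy 2.4.6, pandas 2.3.3, matplotlib 3.10.9) did the rest.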

Additional observations from a re-analysis of the deposited data

Results flagged for a closer look

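For 3 of the 9 genes the levels differed between the Drosha KO and Dgcr8 KO libraries, by the edgeR test of one against the other. The log2 fold change was -1.48 for Tgfbr3, 1.29 for E130102H24Rik and 1.36 for Gm37296. Without the first Dgcr8 KO library 0 of the 3 calls were left. The call of Tgfbr3 was lost only there, that of E130102H24Rik also without the second Dgcr8 KO or the second Drosha KO library, and that of Gm37296 without any 1 of the 4 libraries.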

How the results depend on the processing

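The 9 genes became 5 with a fold limit of 2, which lost 2010111I01Rik, Tgfbr3, Dleu2 and Gm43860, and 6 with a mean of at least 10 CPM, which lost A330023F24Rik, Gm37296 and Gm43860. All 9 were kept among 47 with no minimum CPM, among 213 without the Ago1_2 KO libraries, and among 10 to 29 with 1 library left out (29 without the second Drosha KO library). Leaving out libraries or the minimum can only loosen the fold limit, so that all 9 were kept there does not show stability. The 9 genes became 6 with TMM-scaled CPM, and 8 with DESeq2 size factors. The cause was not tested. In Drosha KO against Dgcr8 KO, the 3 calls became 0 to 4 with 1 library left out, 0 without the first Dgcr8 KO library, and 4 with a GC offset chosen after the data were seen, which added Dleu2 (0.69, edgeR adjusted p 0.0385). In Ago1_2 KO against WT, the 1 call became 0 with limma-voom and 0 to 2 with 1 library left out. The replicate number as a block left 3 and 1 calls among the 9 genes, with 3356 and 4053 calls over all genes against 2525 and 2887. Deviations of same-numbered libraries correlated at 0.234 between Dgcr8 KO and Drosha KO and at 0.137 between Ago1_2 KO and WT, and with 2 pairs the numbers do not establish a pairing. Directions turned only where no call was made. In Drosha KO against Dgcr8 KO, A330023F24Rik was -0.15 with limma-voom and -0.0845 with the replicate block, and with 1 library left out ranged from -0.85 to 0.66, Nespas from -0.0427 to 0.90 and Dleu2 from -0.0237 to 0.39. In Ago1_2 KO against WT, Dleu2 was 0.0124 with library size only and ranged from -0.26 to 0.0791, A330023F24Rik from -4.62 to 2.67, Gm37296 from -0.91 to 0.95, 6720427I07Rik from -0.31 to 0.13 and Gm43860 from -0.90 to 0.44. Leave-one-out fits assume that a lone library varies like the other groups. With 2 libraries per genotype, the low counts of A330023F24Rik and Gm37296 in Ago1_2 KO and WT limit their fold changes.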
